A study of Mus musculus with 12 samples.

Results

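Astrocyte-derived induced pluripotent stem cells (iPSCs) were compared with iPSCs made from mouse embryonic fibroblasts (MEFs), by gene expression on autosomes. The comparison takes the 2 arrays titled as iPSCs from astrocytes and the 2 titled as iPSCs from MEFs, 4 of the 12 arrays of the study. The astrocyte iPSCs carry the Sox1-GFP reporter (Sox1+/-), a green fluorescent protein placed at one allele of the neural transcription factor gene Sox1. They were established from cortical astrocytes of postnatal day 3 after infection with retroviruses for Oct4 (Pou5f1), Klf4, Sox2 and c-Myc. The MEF iPSCs are a single, previously published line, iPS-MEF-Ng-20D-17, and carry a Nanog-GFP-IRES-Puro reporter, named for a pluripotency factor. Both groups were labelled mature iPSCs and grew on mitomycin C-treated MEF feeder cells with 1500 U/ml leukaemia inhibitory factor (LIF). Their embryonic stem cell medium held 15% of either fetal bovine serum or KnockOut Serum Replacement, and the labels do not say which group had which. The other 8 arrays were cells sorted at day 6 of reprogramming (3), the astrocytes themselves (3) and neural stem cells (2), and no arrays of MEFs were among the 12.

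Mouse pluripotent cells can be held in a naive state, which resembles the epiblast before implantation and is kept by LIF, or move toward a primed state, which resembles the epiblast after implantation and responds to Nodal and FGF signals. Both states share a core of transcription factors around Oct4, Sox2 and Nanog, and differ in genes such as Zfp42 on the naive side and Fgf5 and Otx2 on the primed side. Cultures can also hold cells with extraembryonic endoderm genes, can lose or gain marks at imprinted genes, and have been examined for traces of the cell they came from.

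A gene was called when limma's Benjamini-Hochberg adjusted p was under 0.05 and its log2 fold change, astrocyte iPSCs minus MEF iPSCs, was at least 1 in size. Of 19166 autosomal genes, 125 were called (0.652%), 72 of them higher (0.376%) and 53 lower (0.277%) in astrocyte iPSCs. Without the fold limit, 978 genes passed the adjusted p (5.1%), 485 higher (2.53%) and 493 lower (2.57%). At an unadjusted p under 0.05, 1485 genes were higher (7.75%) and 1537 lower (8.02%), the shares against which such counts of list members are to be read. The median log2 fold change of all autosomal genes was -0.004. Pearson's r across genes was 0.9954 between the astrocyte iPSC arrays and 0.9964 between the MEF iPSC arrays, against 0.9895 to 0.9905 from one iPSC group to the other. Source cell, reporter and line go with the groups, the medium may, and these cannot be told apart with 1 MEF line.

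Both groups carried the expression of pluripotent cells. The summed intensity of 18 core pluripotency genes was 30428 and 26668 in astrocyte iPSCs and 28957 and 28303 in MEF iPSCs, while it was 3933 to 4095 in astrocytes. Gene lists covering cell states, cell types and pathways held 620 distinct measured autosomal genes. Of these 34 were called (5.48%, against 0.652% of all autosomal genes), 18 higher (2.9%) and 16 lower (2.58%). The lists were chosen with earlier results of these data known, so shares of single lists are to be read beside these shares too. The array named replicate 2 of the astrocyte iPSCs stood apart in fibroblast genes, with a summed intensity of 15314 over 35 genes against 8805 in replicate 1. Fibroblast-type results are therefore given with and without it.

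**Figure D1:**
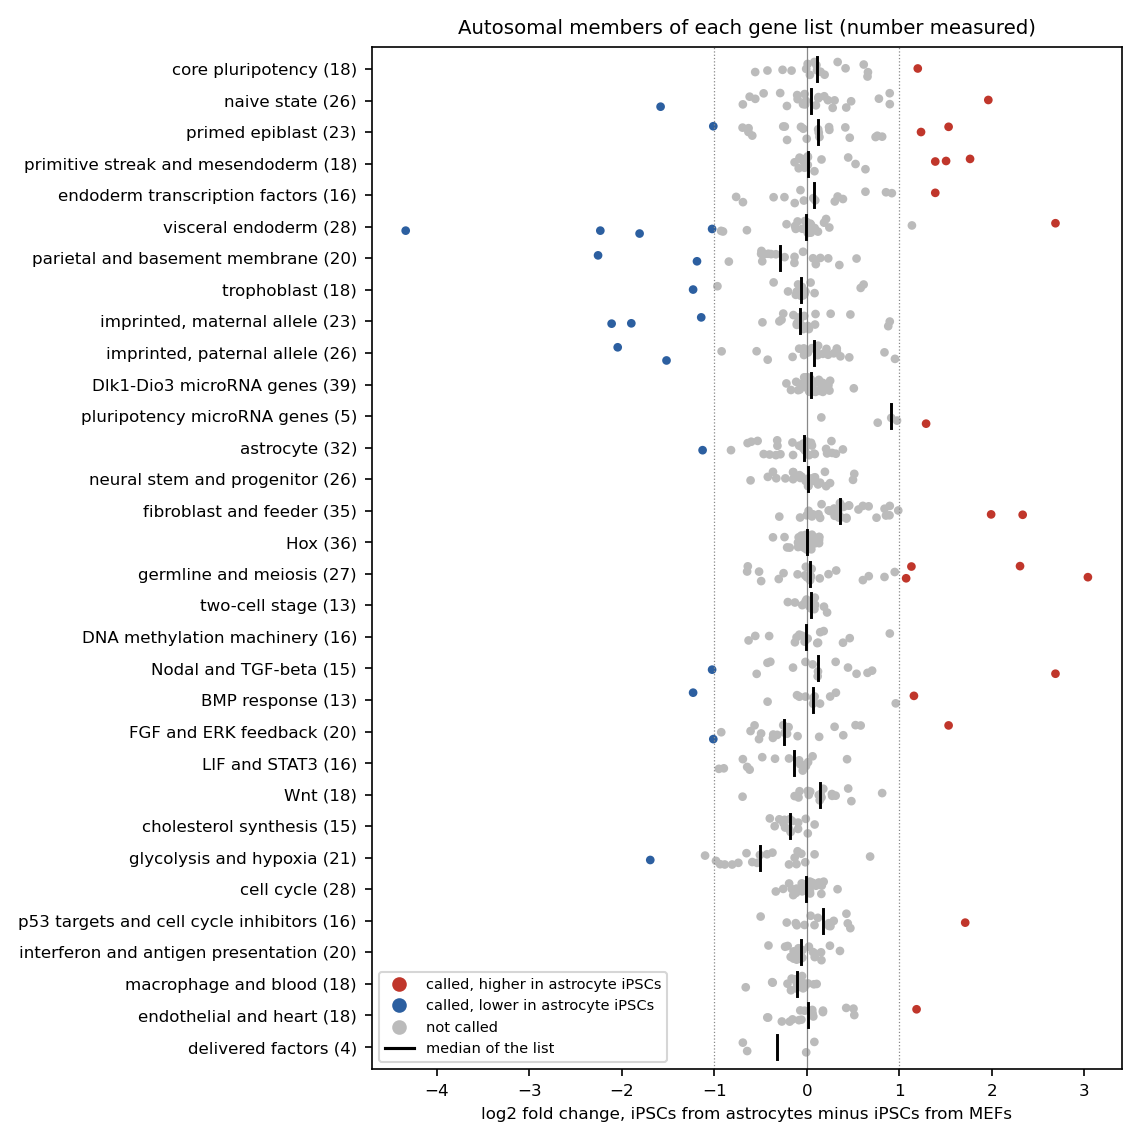
Each point is the log2 fold change (x axis, astrocyte iPSCs minus MEF iPSCs) of 1 autosomal gene in the list named on the y axis, with the number measured in brackets, and black bars are list medians. Called genes in red were higher in astrocyte iPSCs and those in blue lower. The 5 pluripotency microRNA genes have a median of 0.91, glycolysis and hypoxia genes one of -0.51, and fibroblast and feeder genes one of 0.36, which was 0.04 without astrocyte iPSC replicate 2.

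Of 18 core pluripotency genes, 1 was called higher in astrocyte iPSCs (5.56%, against 0.652% of autosomal genes called), and the central factors were not called. Without the fold limit, 4 passed as higher and 0 as lower. Besides the called Fbxo15 these were Rif1, a telomere and replication timing factor gene (0.66), the TGF-beta family ligand gene Gdf3 (0.66) and the zinc finger gene Zfp296 (0.61). Pou5f1 (Oct4), the central factor of the network, had log2 intensities of 11.94 and 11.96 in astrocyte iPSCs and 12 and 11.92 in MEF iPSCs. Its log2 fold change was -0.01 ± 0.19 (SE), with a 95% interval of -0.43 to 0.41. Nanog, the factor for which the reporter of the MEF line is named, had 11.24 and 11.31 against 11.20 and 10.96. The difference was 0.19 with an interval of -0.15 to 0.54. For Sox2 the interval ran from -0.11 to 0.27. Pou5f1 and Sox2 were also delivered by retrovirus to the source astrocytes, and whether their probe sets read those copies was not tested. The called gene was Fbxo15, a ubiquitin ligase subunit gene used as an early reporter of reprogramming, at 9.05 and 8.85 in astrocyte iPSCs against 7.83 and 7.67 in MEF iPSCs (log2 fold change 1.20 ± 0.14, limma adjusted p = 0.000628).

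Naive-state genes were split rather than shifted. Of 26 measured, 1 was called higher and 1 lower (7.69% against 0.652% of autosomal genes), and the median log2 fold change was 0.04. Zfp42 (Rex1), a zinc finger gene of the naive state, was 3.89-fold higher in astrocyte iPSCs. It had 10.21 and 10.38 in astrocyte iPSCs and 8.45 and 8.21 in MEF iPSCs, a log2 fold change of 1.96 ± 0.16 (adjusted p = 5.14e-05, limma). Gbx2, a homeobox gene that sustains naive self-renewal downstream of LIF and STAT3, went the other way, at 7.74 and 7.55 in astrocyte iPSCs against 9.26 and 9.20 in MEF iPSCs (-1.58 ± 0.09, adjusted p = 2.79e-06, limma).

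Below the fold limit, the naive genes that passed the adjusted p also lay on both sides. Dppa3 (Stella), which protects DNA methylation marks in the early embryo, differed by 0.90, Tcl1, a co-activator of Akt, by 0.90 and the transcription factor gene Spic by 0.78. In the opposite direction, the Krüppel-like factor genes Klf4 and Klf5 differed by -0.69 and -0.62, and the nuclear receptor gene Nr5a2 by -0.47. The nuclear receptor gene Esrrb had 9.62 and 9.10 in astrocyte iPSCs and 9.34 and 9.46 in MEF iPSCs, so the groups overlapped, with an interval of -0.37 to 0.28. Tbx3, a T-box gene of naive cells, did not pass (-0.29 ± 0.12, limma adjusted p = 0.273).

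Several primed-state genes were higher in astrocyte iPSCs. Of 23 primed epiblast genes, 2 were called higher and 1 lower, 13% against 0.652% of all autosomal genes. Fgf5, a growth factor gene switched on in the postimplantation epiblast, had log2 intensities of 8.99 and 9.14 in astrocyte iPSCs and 7.72 and 7.35 in MEF iPSCs (1.53 ± 0.15, adjusted p = 0.000199, limma). Otx2, a homeobox factor that drives the exit from the naive state, had 9.97 and 9.41 in astrocyte iPSCs and 8.52 and 8.39 in MEF iPSCs. Its log2 fold change of 1.23 ± 0.29 (adjusted p = 0.0294, limma) lost the call when astrocyte iPSC replicate 1 or either MEF iPSC array was left out, with adjusted p values of 0.194, 0.123 and 0.174.

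Other primed genes lay on both sides. Etv4, an ETS factor induced by FGF signals, was lower, at 8.26 and 7.85 in astrocyte iPSCs against 9.10 and 9.03 in MEF iPSCs (-1.01 ± 0.14, limma adjusted p = 0.0017). Its call was lost without astrocyte iPSC replicate 2, at -0.81, and without MEF iPSC replicate 1, at -0.98. Without the fold limit, 7 of the 23 passed as higher and 5 as lower. Besides Fgf5 and Otx2 the higher ones were the secreted Wnt modulator gene Sfrp2 (0.81), the epithelial factor gene Grhl2 (0.76), the N-cadherin gene Cdh2 (0.74), the de novo DNA methyltransferase gene Dnmt3b (0.46) and the zinc finger gene Sall2 (0.42). Besides Etv4 the lower ones were Dnmt3a (-0.63), the POU factor gene Pou3f1 (-0.63), the forkhead gene Foxp1 (-0.59) and Lef1, a Wnt-responsive factor gene (-0.69).

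Primitive streak and mesendoderm genes supplied 3 calls of 18, all in the same direction and 16.7% against 0.376% of autosomal genes called higher. Mixl1, a homeobox gene of the streak, had 8.05 and 8.33 in astrocyte iPSCs and 6.31 and 6.54 in MEF iPSCs (1.76 ± 0.14, adjusted p = 4.08e-05, limma). Eomes, a T-box factor of streak and definitive endoderm, had 8.16 and 8.78 against 7.27 and 6.90 (1.39 ± 0.20). Lhx1, a LIM homeobox gene of the anterior streak, had 7.53 and 8.11 against 6.22 and 6.41 (1.5 ± 0.16). For each of these genes both astrocyte iPSC arrays lay above both MEF iPSC arrays. The share of all autosomal genes separated in this way was not counted, so the separation adds no evidence to the calls. The 3 genes kept their calls with each iPSC array left out in turn. The median of the list was 0.01, and 13 of the 18 genes lay within 0.5 of 0. A filter on dim genes kept those above the array median on at least 2 of the 12 arrays. It left 9 genes of the list, 6 of them positive, with a median of 0.53. Genes bright in astrocyte iPSCs alone can pass this filter, so that median may be drawn upward. The homeobox gene Gsc and the growth factor gene Fgf8 passed the adjusted p at 0.63 and 0.53.

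**Figure D2:**
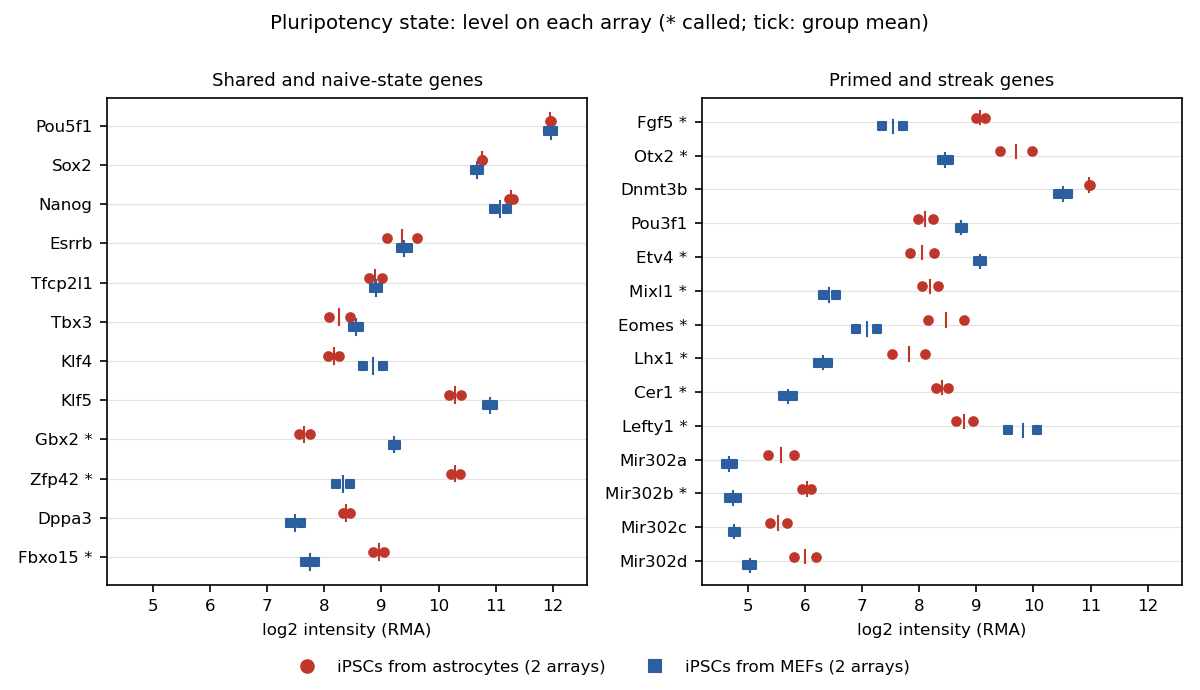
Points give the log2 RMA intensity (x axis) of each gene on each array, with astrocyte iPSCs as red circles above MEF iPSCs as blue squares, ticks at group means and an asterisk at called genes. Pou5f1, Sox2 and Nanog lie close together in both groups, while Zfp42, Fgf5, Otx2, Mixl1, Eomes, Lhx1 and Cer1 lie higher in astrocyte iPSCs and Gbx2, Etv4 and Lefty1 lower.

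The Nodal pathway, which acts in the epiblast and patterns the streak, had inhibitors on both sides. Cer1, a secreted inhibitor of Nodal, BMP and Wnt ligands, was higher in astrocyte iPSCs, with 8.29 and 8.50 against 5.62 and 5.79 in MEF iPSCs (2.69 ± 0.12, adjusted p = 6.41e-07, limma). Lefty1, a secreted Nodal antagonist and pathway target, was lower, with 8.94 and 8.64 against 10.07 and 9.56 (-1.02 ± 0.16, limma adjusted p = 0.0042). The Lefty1 call was lost without astrocyte iPSC replicate 2 (-0.87) or without MEF iPSC replicate 1 (-0.77). Of 15 Nodal and TGF-beta genes these were the 2 calls (13.3% against 0.652% of autosomal genes), and the ligand genes Nodal (0.44) and Gdf3 (0.66) and the nuclear partner gene Foxh1 (0.70) passed the adjusted p with smaller differences.

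Ligands of the BMP family also moved apart. Bmp7 was higher, at 8.27 and 8.73 in astrocyte iPSCs against 7.29 and 7.40 in MEF iPSCs (1.16 ± 0.19, limma adjusted p = 0.0044), and without astrocyte iPSC replicate 2 it fell just under the fold limit at 0.93. Bmp4, which maintains naive cells with LIF and acts in extraembryonic ectoderm, was lower, at 8.71 and 8.76 against 9.97 and 9.96 (-1.23 ± 0.17, limma adjusted p = 0.0017). Of the 13 BMP response genes these were the 2 called (15.4% against 0.652% of autosomal genes). Bmp2, which was not in the list and was chosen after its values were seen, was also higher (1.23 ± 0.15, limma adjusted p = 0.000828).

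Genes of LIF and STAT3 signalling, the route that holds mouse cells in the naive state, gave 0 calls of 16. At an unadjusted p under 0.05, 7 were lower and 0 higher in limma, where 8.02% of autosomal genes were lower. At the adjusted p 6 were lower, against 2.57%. These were Socs3, the feedback inhibitor of the pathway (-0.95), the co-activator gene Bcl3 (-0.90), Klf4, Myc (-0.65), Klf5 and Stat3 itself (-0.48). Klf4 and Myc were also the 2 of 4 delivered factors that passed the adjusted p. Whether their probe sets read retroviral copies was not tested. The list's median was -0.14, against -0.004 over all autosomal genes. Left out one at a time, the iPSC arrays gave list medians between -0.11 and -0.30. FGF and ERK feedback genes had a median of -0.25 over 20 genes. Their calls were Fgf5 and Etv4 (10.0% against 0.652% of autosomal genes). Among Wnt genes 0 of 18 were called, with 6 higher and 1 lower at an unadjusted p under 0.05 in limma.

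The miR-302 cluster, a set of microRNAs abundant in primed epiblast and human pluripotent cells, was measured through the array's probe sets for its precursor genes. The mature sequences are shown because members share a seed, the bases at positions 2 to 8 that pair with target messages, printed here in capitals from RefSeq (GRCm38.p6, plus strand).
mmu-miR-302b-3p, chr3:127545275-127545297: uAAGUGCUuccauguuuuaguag
mmu-miR-302c-3p, chr3:127545406-127545427: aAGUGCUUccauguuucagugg
mmu-miR-302d-3p, chr3:127545665-127545687: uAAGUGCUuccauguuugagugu
mmu-miR-367-3p, chr3:127545779-127545800: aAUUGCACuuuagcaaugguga
In these records miR-302b and miR-302d have the seed AAGUGCU, miR-302c the same letters shifted by a base (AGUGCUU), and miR-367 the unrelated seed AUUGCAC. The cluster covers 580 bases within the spans of Larp7, a gene for an RNA-binding protein, and of the predicted gene Gm51018. The strands of these genes were not compared with that of the cluster.

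Mir302b had log2 intensities of 5.95 and 6.11 in astrocyte iPSCs and 4.80 and 4.68 in MEF iPSCs, a called difference of 1.29 ± 0.10 (adjusted p = 3.42e-05, limma). Mir302d (0.97), Mir302a (0.91) and Mir302c (0.77) passed the adjusted p just under the fold limit. MEF iPSC levels of these 4 genes, between 4.61 and 5.08, were close to the astrocyte means of 4.5 to 4.8, so the lower side lies near the bottom of the array's range. With 16 subtracted before log2 was taken, 4 of the 5 pluripotency microRNA genes were called. Mir367, whose seed differs, had an interval of 0.02 to 0.29 and an adjusted p of 0.214 in limma. Larp7 had 9.57 and 9.46 in astrocyte iPSCs and 9.00 and 8.94 in MEF iPSCs (0.54 ± 0.11, limma adjusted p = 0.0156). Whether the precursor signals come from the mature microRNAs or from a longer transcript was not tested, nor whether Larp7 shares a transcript with them.

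A few endoderm-like genes were far lower in astrocyte iPSCs, among them receptors of the visceral endoderm, while the median of all endoderm-list genes lay near 0. Over the 3 endoderm lists, 64 genes were measured, of which 2 were called higher and 6 lower, so 9.38% were called lower against 0.277% of autosomal genes. Of the 64, 28 were positive and 36 negative, with a median of -0.04. The median was -0.01 for 28 visceral endoderm genes, which was 0.06 without MEF iPSC replicate 2, and 0.08 for 16 endoderm transcription factors. With dim genes left out, the medians moved apart. The visceral endoderm median was then -0.17 over 16 genes, 4 of them positive. That of the transcription factors was 0.30 over 11 genes, 6 of them positive. Cubn, which encodes the endocytic receptor cubilin, had the largest log2 difference of the autosomal genes. Its levels were 6.12 and 5.83 in astrocyte iPSCs and 10.30 and 10.32 in MEF iPSCs (-4.34 ± 0.11, adjusted p = 1.2e-08, limma). Means were 6.6 in astrocytes and 5.6 in day 6 cells, so the astrocyte iPSCs lay between those groups. Both astrocyte iPSC values were under the array medians, so the size of the difference depends on the array's floor.

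Partners of cubilin lay in the same direction. Lrp2 (megalin), its co-receptor, had 7.90 and 7.76 in astrocyte iPSCs and 9.64 and 9.64 in MEF iPSCs (-1.81 ± 0.24, limma adjusted p = 0.0015). Amn, which carries cubilin to the cell surface, had 6.72 and 6.71 against 7.78 and 7.50, and its difference of -0.93 ± 0.11 passed the adjusted p but not the fold limit. Dab2, an endocytic adaptor for megalin, had 7.47 and 7.68 against 9.77 and 9.84 (-2.23 ± 0.12, adjusted p = 2.79e-06, limma). A dim second probe set of Dab2 did not show this, at means of 4.69 in astrocyte iPSCs and 4.71 in MEF iPSCs.

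Basement membrane and parietal endoderm genes had 2 genes of 20 called lower (10.0%, against 0.277% of autosomal genes) and a median of -0.29. The median was -0.15 without astrocyte iPSC replicate 1 and -0.43 without replicate 2, and the 2 calls were counted in both. Srgn, a secretory granule proteoglycan abundant in parietal endoderm, had 9.55 and 9.62 in astrocyte iPSCs and 11.76 and 11.92 in MEF iPSCs (-2.26 ± 0.14, adjusted p = 8.46e-06, limma). Lama1, a laminin chain of the embryonic basement membrane, had 8.41 and 8.63 against 9.71 and 9.71 (-1.19 ± 0.10, limma adjusted p = 5.62e-05). Lamb1 (-0.48) and Col4a1 (-0.49), further basement membrane chains, passed the adjusted p only.

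The factors that define primitive endoderm did not differ to the same extent. Gata6 had 7.31 and 7.66 in astrocyte iPSCs and 7.78 and 7.34 in MEF iPSCs, an overlap, with an interval of -0.40 to 0.26. Sox17 had 6.27 on both astrocyte iPSC arrays and 6.33 and 6.28 on the MEF iPSC arrays, with an interval of -0.26 to 0.19. These Sox17 values were under the array medians, where the array's floor can hide a difference. Gata4 was nearer the receptors in direction, at 7.37 and 7.46 against 8.10 and 8.11 (-0.69 ± 0.09, limma adjusted p = 0.00084), under the fold limit. The secreted visceral products Afp, Ttr and Apoa1 lay between 5.1 and 6.5 on the 4 arrays with overlapping groups, also under the array medians.

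Opposite in direction were Eomes and Cer1, the 2 endoderm-list genes called higher, together with Foxa2 (0.85) and Prdm1 (0.92), which passed the adjusted p alone. Foxa2 and Prdm1 are transcription factor genes of definitive endoderm and of the germline and early endoderm. In bulk cultures such as these, fewer cells of a type and less RNA per cell cannot be told apart. Lrp2 and Dab2 were also expressed in astrocytes, at means of 9.7 and 9.5.

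Imprinted genes gave 5 calls of 49, and in each the astrocyte iPSCs were lower. That is 10.2% against 0.277% of autosomal genes called lower. At an unadjusted p under 0.05, limma counted 6 imprinted genes higher and 12 lower, and the median over the 49 was -0.03. The calls came from both parental classes, 3 of 23 genes expressed from the maternal allele and 2 of 26 from the paternal allele. The arrays do not separate alleles, so levels are sums over both.

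Among maternally expressed genes, Phlda2, a growth-restraining gene of the placenta, had 9.08 and 8.73 in astrocyte iPSCs and 10.97 and 11.06 in MEF iPSCs (-2.11 ± 0.12, adjusted p = 4.26e-06, limma). Its neighbour on chromosome 7, with 1 measured gene between them, is the cell cycle inhibitor gene Cdkn1c. Cdkn1c had 7.35 and 7.39 against 8.59 and 8.44 (-1.14 ± 0.19, limma adjusted p = 0.0058), and without MEF iPSC replicate 1 the adjusted p was 0.0572. Grb10, an adaptor that dampens insulin receptor signalling, had 8.89 and 8.88 against 10.83 and 10.74 (-1.90 ± 0.14, limma adjusted p = 3.18e-05). All 3 had groups that did not overlap, which the rule for the lowest genes required of Phlda2 and Grb10. For Cdkn1c it adds no evidence either, since the share of all autosomal genes without overlap was not counted.

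Among paternally expressed genes, Nnat (neuronatin), a membrane proteolipid of brain and endocrine cells, had 8.50 and 8.47 in astrocyte iPSCs and 10.58 and 10.47 in MEF iPSCs (-2.04 ± 0.18, limma adjusted p = 7.93e-05). Peg3, a zinc finger gene, had 9.55 and 9.93 against 11.22 and 11.29 (-1.52 ± 0.29, limma adjusted p = 0.0117). The Peg3 call was lost without astrocyte iPSC replicate 1 or either MEF iPSC array, with adjusted p values of 0.087, 0.0706 and 0.0856. Plagl1, a zinc finger gene that regulates other imprinted genes, passed the adjusted p at -0.92. Mest, a hydrolase-like gene, leaned the other way without passing, at 11.34 and 11.15 against 10.31 and 10.28 (0.95 ± 0.25, limma adjusted p = 0.0546).

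The Dlk1-Dio3 region, whose maternal transcripts have been used to grade mouse iPSC lines, did not yield a call. Its non-coding RNA gene Meg3 (Gtl2) had 10.38 and 10.26 in astrocyte iPSCs and 9.77 and 9.93 in MEF iPSCs, a difference of 0.47 with an interval of -0.15 to 1.09. Rian, a further non-coding RNA of the region, had 7.41 and 7.27 against 6.50 and 6.42 and passed the adjusted p at 0.88 ± 0.17. For the paternal gene Dlk1 the interval was -0.33 to 0.26. Of 39 microRNA genes of the region 0 were called in limma, with 3 higher and 0 lower at an unadjusted p under 0.05. The filter on dim genes kept 9 of the 39, so most of them could show little. Their largest difference was that of Mir382, at 0.51. In both groups Meg3 stood above its means of 6.7 in astrocytes and 7.2 in day 6 cells. The growth factor gene Igf2 differed between arrays of a group, at 8.07 and 9.27 in astrocyte iPSCs and 8.81 and 8.43 in MEF iPSCs.

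**Figure D3:**
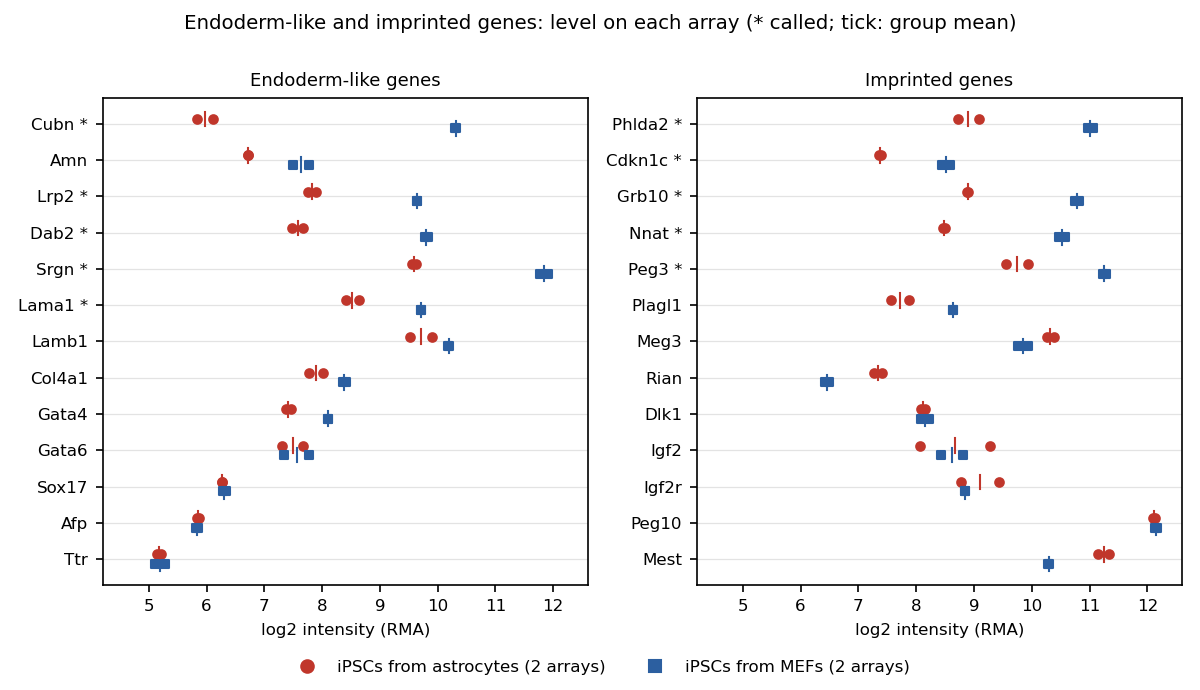
Log2 RMA intensity (x axis) of endoderm-like genes and imprinted genes on each array, with astrocyte iPSCs as red circles above MEF iPSCs as blue squares, ticks at group means and an asterisk at called genes. Cubn shows the widest gap, with 6.12 and 5.83 in astrocyte iPSCs against 10.30 and 10.32 in MEF iPSCs, while Gata6, Sox17, Afp, Dlk1 and Igf2 show little or none.

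Germline and meiosis genes included the autosomal gene with the largest difference upward. Of 27 measured genes, 4 were called higher and 0 lower, 14.8% against 0.376% of autosomal genes called higher. At an unadjusted p under 0.05, limma counted 10 higher and 6 lower. Tdrd12, a tudor-domain protein of the piRNA pathway that silences transposons in germ cells, had 9.44 and 9.29 in astrocyte iPSCs and 6.43 and 6.23 in MEF iPSCs (3.04 ± 0.09, adjusted p = 2.14e-08, limma). Sycp3, a structural protein of the meiotic chromosome axis, had 7.87 and 7.46 against 5.64 and 5.08 (2.30 ± 0.16, limma adjusted p = 2.49e-05).

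Piwil2, a PIWI protein that binds piRNAs, had 8.07 and 7.81 in astrocyte iPSCs and 6.78 and 6.83 in MEF iPSCs (1.13 ± 0.11, limma adjusted p = 0.000173). Hormad1, a meiotic chromosome axis protein, had 7.54 and 7.30 against 6.44 and 6.25 (1.07 ± 0.09, limma adjusted p = 6.35e-05), and a second probe set of the gene differed by 2.23. Piwil2 and Hormad1 fell just under the fold limit without astrocyte iPSC replicate 1, so 2 calls remained there, while without replicate 2 there were 6. Below the fold limit, Smc1b, Mael, Tex19.1 and Dazl passed the adjusted p as higher, at 0.95 to 0.61. Piwil4, Rnf17, Sycp1 and Dmc1 passed as lower, at -0.65 to -0.49, so the list as a whole was mixed and its median was 0.04.

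In mouse embryonic stem cells many germline genes are held down by promoter DNA methylation and by a repressor complex with MGA, MAX and E2F6. MAX dimers recognise the E-box CACGTG, and E2F6 a site of the form GGCGGGAA. RefSeq promoter windows (250 bases before to 50 after the start) were searched for both, on either strand. CACGTG occurred in 11 of 25 germline list genes with a window (44.0%), against 8.11% of autosomal genes. GGCGGGAA occurred in 3 of 25 (12%), against 2.51%. These shares are of the whole list, most of which was not called. Of the called genes 3 had a window, 2 with CACGTG and 1 with GGCGGGAA, and Piwil2 had no window. That is too few to set the called genes against the rest of the list. The windows of Sycp3 and Hormad1 each hold 2 E-boxes and that of Hormad1 also 1 GGCGGGAA, without overlap, while the windows of Tdrd12 hold neither. Both windows follow, with the matches in capitals (GRCm38.p6, plus strand), because they show how the matches are placed in these called genes.
Sycp3, chr10:88459337-88459636: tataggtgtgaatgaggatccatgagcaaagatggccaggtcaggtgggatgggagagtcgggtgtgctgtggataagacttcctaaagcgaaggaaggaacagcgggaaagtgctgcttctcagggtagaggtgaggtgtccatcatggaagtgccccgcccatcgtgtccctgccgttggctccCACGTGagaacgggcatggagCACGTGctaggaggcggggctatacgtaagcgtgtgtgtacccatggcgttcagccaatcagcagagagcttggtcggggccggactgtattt
Hormad1, chr3:95559427-95559726: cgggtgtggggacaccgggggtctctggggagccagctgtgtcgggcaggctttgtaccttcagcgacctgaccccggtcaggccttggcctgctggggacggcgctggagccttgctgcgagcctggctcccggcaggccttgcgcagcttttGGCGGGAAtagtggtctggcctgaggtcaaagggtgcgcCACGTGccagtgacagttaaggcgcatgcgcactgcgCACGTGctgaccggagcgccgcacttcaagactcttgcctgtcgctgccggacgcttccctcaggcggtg
These matches describe the letters of the windows, and neither binding nor methylation was measured.

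**Figure D4:**
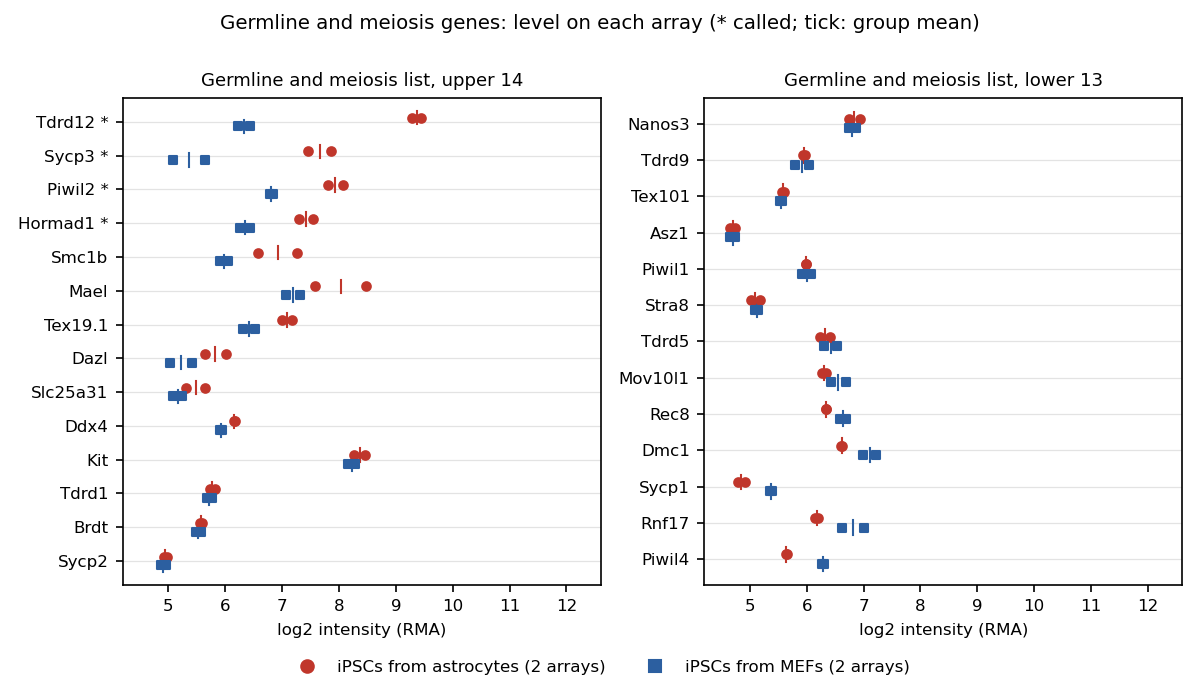
Log2 RMA intensity (x axis) on each array of the 27 germline and meiosis genes, ordered by difference, with astrocyte iPSCs as red circles above MEF iPSCs as blue squares, ticks at group means and an asterisk at called genes. Tdrd12, Sycp3, Piwil2 and Hormad1 lie higher in astrocyte iPSCs, and Dmc1, Sycp1, Rnf17 and Piwil4 at the end of the list lie lower without being called.

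Traces of the astrocyte origin were looked for in 2 ways, through a marker list and through genes measured as high in the astrocytes, and in both the median lay near 0. The median of 32 astrocyte markers was -0.03. Of them, 0 were called higher in limma, with 2 higher and 8 lower at an unadjusted p under 0.05. Gfap, the astrocyte intermediate filament, had 6.17 and 6.17 in astrocyte iPSCs and 6.14 and 6.27 in MEF iPSCs, against an astrocyte mean of 12.3. Its interval between the iPSC groups was -0.36 to 0.28. The called member was Aldoc, a glycolytic aldolase of astrocytes, which was lower, at 7.82 and 7.53 against 8.79 and 8.81 (-1.13 ± 0.16, limma adjusted p = 0.0023), and stood at -0.98 without astrocyte iPSC replicate 2. Summed over the list, the intensity was 8202 and 7905 in astrocyte iPSCs and 9127 and 8833 in MEF iPSCs, while astrocytes had 97780 to 105371.

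The second way used genes chosen on arrays outside the iPSC groups, those called higher in astrocytes than in both day 6 cells and neural stem cells. Of these 1175 genes, 4 were called higher and 9 lower in astrocyte iPSCs, 1.11% together against 0.652% of autosomal genes. Their median was 0.006. The lower ones included Dab2, Lrp2, Bmp4 and Plce1, a phospholipase C gene at 6.05 and 6.18 in astrocyte iPSCs against 8.67 and 8.58 in MEF iPSCs (-2.51 ± 0.18, limma adjusted p = 2.58e-05). The 4 higher ones, which are named although they fall outside the rule for named genes, were Igfbp3, which encodes an IGF-binding protein (1.47 ± 0.19), the peptide transporter gene Slc15a2 (1.41 ± 0.11), the Wnt receptor gene Fzd8 (1.05 ± 0.11) and Zfp605. Of 607 genes low in astrocytes by the same rule (3.17% of autosomal genes; the 1175 high genes were 6.13%), 0 were called higher and 1 lower, Grb10. Among them, limma counted 33 higher and 54 lower at an unadjusted p under 0.05, near the 7.75% and 8.02% of all autosomal genes.

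Genes high in the day 6 cells numbered 266 (1.39% of autosomal genes), and 8 of them were called (3.01%, against 0.652% of autosomal genes), 5 higher and 3 lower. Ceacam1, a cell adhesion molecule gene with a day 6 mean of 9.2, was among the lower ones, at 5.71 and 5.41 in astrocyte iPSCs against 7.64 and 7.78 in MEF iPSCs (-2.15 ± 0.33, limma adjusted p = 0.0036). Cyp2b23, a cytochrome P450 gene, was among the higher ones (1.82 ± 0.34, limma adjusted p = 0.01), but lost its call without astrocyte iPSC replicate 1, at 1.33, or without either MEF iPSC array. The day 6-high genes had a median of -0.0006. Neural stem and progenitor genes gave 0 calls of 26 in limma, with 2 higher and 4 lower at an unadjusted p under 0.05. Sox1, disrupted at one allele in the astrocyte iPSCs, had 8.01 and 7.98 in astrocyte iPSCs and 7.98 and 7.99 in MEF iPSCs.

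For the fibroblast origin no source arrays were at hand, and MEF feeders were under both lines. Fibroblast and feeder genes were not lower in astrocyte iPSCs, with 0 of 35 called lower. At an unadjusted p under 0.05 in limma, 14 were higher and 0 lower, where 7.75% of autosomal genes were higher. Positive differences were seen in 32 of the 35 genes, and in 23 without astrocyte iPSC replicate 2. Called higher were 2 (5.71%, against 0.376% of autosomal genes), the matrix metalloproteinase gene Mmp3 and the collagen-binding proteoglycan gene Lum. Mmp3 had 9.30 and 10.20 in astrocyte iPSCs and 7.62 and 7.22 in MEF iPSCs (2.33 ± 0.24, limma adjusted p = 0.000289), and without replicate 2 the difference was 1.89. Lum had 7.36 and 8.63 against 5.87 and 6.13 (1.99 ± 0.29, limma adjusted p = 0.0023), and without replicate 2 its difference was 1.36.

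The list's median rested on 1 array. It was 0.36 with both astrocyte iPSC arrays, 0.04 without replicate 2 and 0.72 without replicate 1. Of the 35 genes, 2 were called without replicate 2 and 7 without replicate 1. The summed intensity was 8805 and 15314 in astrocyte iPSCs and 7779 and 7373 in MEF iPSCs. The collagen genes showed the same array standing apart, with Col1a1 at 9.01 and 9.67 against 8.95 and 9.03, and Col1a2 at 8.62 and 9.66 against 8.76 and 8.67. Neither was called, with intervals of -0.28 to 0.97 and -0.27 to 1.12. The part of feeder cells in these values was not tested. Of 36 Hox genes, which mark positional origin in fibroblasts, 0 were called in limma, with 0 higher and 2 lower at an unadjusted p under 0.05. The filter on dim genes kept 3 of the 36, so this list could show little about origin.

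**Figure D5:**
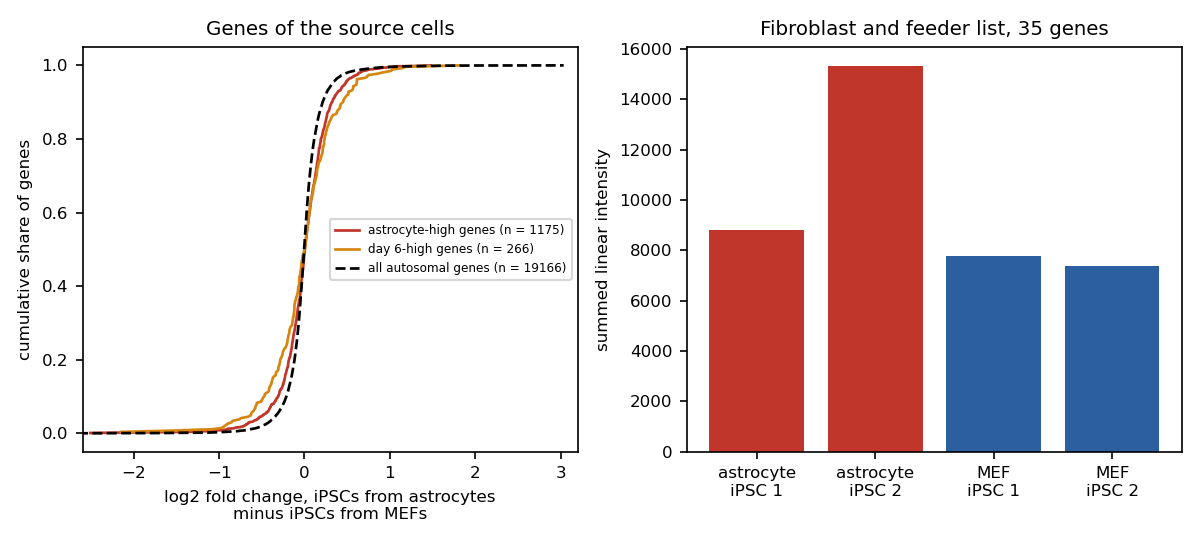
Left, the cumulative share of genes (y axis) by log2 fold change (x axis, astrocyte iPSCs minus MEF iPSCs, drawn without the few autosomal genes beyond its left end) for 1175 astrocyte-high genes, 266 day 6-high genes and 19166 autosomal genes, with all curves crossing the middle near 0. Right, the summed linear intensity of 35 fibroblast and feeder genes (bars from 0) on each iPSC array, where astrocyte iPSC replicate 2 stands at 15314 and the other 3 arrays between 7373 and 8805.

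The remaining genes with the largest differences had varied roles. Higher in astrocyte iPSCs were Slc27a2, a fatty acid transporter and acyl-CoA synthetase gene, at 9.15 and 8.96 against 6.36 and 6.43 in MEF iPSCs (2.66 ± 0.09, limma adjusted p = 7.89e-08), and Slc23a1, a vitamin C transporter gene, at 9.09 and 9.03 against 6.90 and 6.69 (2.27 ± 0.13). Pmaip1 (Noxa), a pro-apoptotic p53 target, had 9.84 and 9.53 against 8 and 7.95 (1.71 ± 0.19). It was the called gene among 16 p53 targets and cell cycle inhibitors (6.25% against 0.652% of autosomal genes). The phospholipase gene Liph (1.71 ± 0.12) and Nlrp9b, a gene of the NLR family (1.83 ± 0.08), were also among the 15 highest. Flt1, a VEGF receptor gene (1.19 ± 0.10), was the called gene of the endothelial and heart list (5.56% against 0.652% of autosomal genes).

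Lower in astrocyte iPSCs was Tcf15, a helix-loop-helix gene linked to priming in embryonic stem cells and to somites, at 7.04 and 6.99 against 9.75 and 9.58 in MEF iPSCs (-2.65 ± 0.08, limma adjusted p = 2.14e-08). Kcnma1, a calcium-activated potassium channel gene, had 5.12 and 5.22 against 7.09 and 7.40 (-2.07 ± 0.12), though its second probe set differed by -0.04. The citrate transporter gene Slc13a5 (-1.84 ± 0.13), the galectin gene Lgals2 (-1.83 ± 0.08) and the reductase gene Cyb5r1 (-1.63 ± 0.14) followed. Each of these 5 had groups that did not overlap, but the rule for the lowest genes required this, so it adds no evidence.

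Glycolysis and hypoxia genes were lower as a group by count, with 19 of 21 negative and a median of -0.51. Of them 1 was called (4.76% against 0.652% of autosomal genes). The called gene was Egln3, an oxygen-sensing prolyl hydroxylase that is itself induced by hypoxia, at 8.45 and 8.27 in astrocyte iPSCs and 10.12 and 9.99 in MEF iPSCs (-1.69 ± 0.13, limma adjusted p = 4.08e-05). Without the fold limit, 7 passed as lower and 1 as higher, against 2.57% of all autosomal genes passing as lower. Those lower included the glucose transporter gene Slc2a1 (-0.74), the enzyme genes Tpi1 (-0.59) and Hk2 (-0.51), the hypoxia-induced Ankrd37 (-0.89) and Adm (-0.94), and the collagen hydroxylase gene P4ha1 (-0.81). Pfkm, a phosphofructokinase subunit gene, was the higher one (0.68). The list median lay between -0.46 and -0.53 with each iPSC array left out in turn.

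Some called genes sat side by side, in RefSeq gene order on GRCm38.p6. On chromosome 4, Zfp600, Zfp991, Zfp982 and Zfp985 followed each other with no measured gene between them, and each was higher, from 1.32 to 1.92. Zfp982, for example, had 8.13 and 7.91 in astrocyte iPSCs and 6.29 and 5.91 in MEF iPSCs. These zinc finger genes belong to a family of close copies, so their probe sets may read several members and the 4 values are uncertain as separate measurements. On chromosome 17, Glo1 and Dnah8, an enzyme and a dynein gene, were neighbours and lower by -1.02 and -1.13, and on chromosome 2 Fermt1 and Bmp2 were neighbours and higher by 1.21 and 1.23. The neighbours outside the lists were chosen after their values were seen. No autosome was shifted as a whole, with medians of the brighter genes between -0.04 and 0.03 over the 19 autosomes.

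Precision is limited by having 2 arrays in each iPSC group. The design text calls the replicates biological, but the labels do not tell whether they came from separate cultures. The p values therefore tell only how far these samples lie apart, which may be technical, relative to a spread between replicate arrays. That spread was fitted over all groups of the study, so it also holds the replicate noise of the groups that were not iPSCs. The same holds for the standard errors and the intervals.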

How the data were processed

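Gene expression was measured with Affymetrix Mouse Gene 1.0 ST arrays. The deposited values are probe set intensity values that the authors made with RMA (robust multi-array averaging), as named in the submitters' processing notes without a version. The values were linear (20.2 to 15436, array medians 97.9 to 104.9), and log2 was taken. A constant added before deposit would shrink the differences of dim genes.

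Of 28853 probe sets, 21789 carry 1 gene symbol, 1621 several and 5443 none, from GEO's platform annotation updated through RefSeq (GRCm38.p6). Each of 19938 genes was read from its brightest probe set with 1 symbol, by the mean over all arrays; 19166 genes are autosomal and 999 of all genes had several probe sets. Of 751 list entries, 667 were matched to an autosomal gene. The sources name no genome build for the probe sets, so their coordinates were not used.

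limma 3.58.1 (R 4.3.3) fitted 1 mean per group to all 12 arrays (7 residual degrees of freedom), with Benjamini-Hochberg adjustment over 19938 genes. Errors are limma standard errors and intervals are 95% intervals. The members and gene lists were chosen with earlier results of these data known. Named genes were the 15 highest and 15 lowest called autosomal genes without overlap between groups (predicted genes, clones, olfactory and vomeronasal receptors and ribosomal protein genes left out), every called list member and a fixed set of marker genes. Some of the list members with an adjusted p under 0.05 are named besides, not all of them. H19 and Mirg had no single-symbol probe set.

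In simulated data of this layout, 92% to 100% of 50 genes changed by 1.25, 1.5, 2 or 3 (log2) were recovered. Among the unchanged genes there were 3 false calls. The simulated noise was independent between arrays and held no differences of line or medium, so calls from those were not addressed. The alternatives changed the probe set rule, the dim-gene filter (11905 genes kept), normalization, arrays in the fit, variance model, array weights, a subtracted constant of 16, thresholds, a replicate block and each iPSC array. Tables were made with pandas 2.3.3 and numpy 2.4.6 and figures with matplotlib 3.10.9 (Python 3.11.15).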

Additional observations from a re-analysis of the deposited data

How the results depend on the processing

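The 125 calls kept their sign under every alternative run in which they were called. Their number was 114 to 128 with the mean of probe sets, without dim genes, with cyclic loess, median centring, the 4 iPSC arrays alone, trend and robust settings, array weights and an adjusted p under 0.01. With 16 subtracted before log2 there were 184 calls, 109 higher and 75 lower, and 22 in place of 13 calls among astrocyte-high genes. Without the fold limit there were 978, 485 higher and 493 lower, with 116 in place of 34 among list members. Leaving out 1 iPSC array gave 116 to 153 calls, 57 to 98 higher and 38 to 59 lower, and 32 to 41 among list members; the lone array left is then assumed to vary like the other groups. Of 48 named genes called, 36 kept the call in every fit run. The filter on dim genes left out 2 (Mir302b and Nlrp9b), which kept it otherwise, and 10 lost it in at least 1 fit without an iPSC array (Aldoc, Bmp7, Cdkn1c, Cyp2b23, Etv4, Hormad1, Lefty1, Otx2, Peg3 and Piwil2). With the replicate number as a block there were 126 calls, 72 higher and 54 lower, and all 125 were among them. Same-numbered arrays deviated together with r = 0.158, but 2 pairs and the labels give no ground for pairing. Dim genes, such as the microRNA precursors, have differences that depend on the array's floor.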

Other observations

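Lists of housekeeping and other cell programmes held few differences. The 28 cell cycle genes held 0 calls, with 0 higher and 0 lower at an unadjusted p under 0.05 in limma and a median of -0.0045. Cholesterol synthesis genes gave 0 calls of 15 in limma, with 0 higher and 6 lower at an unadjusted p under 0.05, and 13 of them were negative, with a median of -0.18. Among 16 genes of the DNA methylation machinery limma called 0, with 2 higher and 3 lower at an unadjusted p under 0.05. Dnmt3a and the reader gene Mbd2, which binds methylated DNA, passed the adjusted p as lower (-0.63 and -0.41), and Dnmt3b and Dppa3 as higher (0.46 and 0.90). Genes of the 2-cell stage embryo gave 0 calls of 13 in limma, with 1 higher and 0 lower at an unadjusted p under 0.05. The filter on dim genes kept 2 of the 13, so this list too could show little.

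Markers of other cells were likewise little different. The 18 macrophage and blood genes and the 20 interferon and antigen presentation genes each had 0 calls in limma, with 0 higher and 1 lower at an unadjusted p under 0.05 in each list. Macrophage and blood genes summed to intensities of 1867 and 1706 in astrocyte iPSCs and 1971 and 1927 in MEF iPSCs, and 6 of the 18 passed the filter on dim genes. Of 18 trophoblast genes Bmp4 was the called one (5.56% against 0.652% of autosomal genes). The keratin gene Krt19 passed the adjusted p at -0.97, with 6.92 and 6.84 in astrocyte iPSCs against 7.90 and 7.79 in MEF iPSCs. Of the endothelial and heart genes besides Flt1, the receptor genes Tek (0.51) and Eng (0.42) and the calcium channel gene Ryr2 (0.50) passed the adjusted p as higher and the adhesion gene Esam as lower (-0.42).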
